A study of Mus musculus with 9 samples.

Results

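The 10 genes described here mark the endothelium and the endocardium of the E10.5 mouse heart, and were followed across 9 RNA-seq libraries from hearts in which the gene of the chromatin architecture factor CTCF was intact or deleted in the cardiac lineage. They were picked by name (Pecam1, Cdh5, Esam, Tek, Tie1, Emcn, Eng, Plvap, Nfatc1 and Npr3) from the 14011 genes of the expression table, in which all 10 were found. Homozygotes (Ctcf fl/fl; Nkx2.5-Cre) lost both floxed alleles under a driver active in cardiac progenitors, heterozygotes (Ctcf fl/+; Nkx2.5-Cre) lost 1, and controls carried no Cre. The sample labels give the controls as Ctcf fl/fl and the study's text as Ctcf fl/+. Each group had 3 libraries, each made from a pool of 6 hearts of mixed strain, so p-values measure the spread between pools. Nkx2.5-Cre separates both mutant groups from the controls, so its part in any difference from controls cannot be told apart from that of Ctcf; homozygotes against heterozygotes is the comparison in which both groups carry Cre. As a limit of the model, immunostaining in the study still found CTCF protein in the endocardium of homozygous hearts at this stage, when it was lost from cardiomyocytes. The libraries themselves do not separate the cell types.

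Endothelial cells line every blood vessel, and the endocardium is the specialised endothelium that lines the heart chambers. Endothelial cells hold together through junction proteins and respond to circulating ligands through receptors on their surface. The embryonic endocardium also signals to the adjoining myocardium, and in the cushions it gives rise to the mesenchyme of the valves. In RNA from whole hearts, fewer cells of a type and less RNA per cell cannot be told apart.

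The 9 libraries held between 4294537 and 11629365 reads over the genes of the table. The deposited signal value is a read count scaled to the library's size, in which 1 read is worth between 0.0901 and 0.231. Ctcf itself stood between 120.5 and 122.2 in controls, between 94.2 and 100.7 in heterozygotes and between 79.6 and 84.7 in homozygotes, with no overlap between groups. Ctcf RNA was still present in homozygotes, at a mean of 81.4. Homozygote 1 stood apart from homozygotes 2 and 3 for most of the 10 genes, and results are also given without it. All 10 genes were detected in every library, from at least 110 reads for Esam to at most 2299 reads for Npr3.

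The starts of 4 of the genes are shown because the results turn on Npr3 and Emcn, the 2 genes called, in opposite directions, and Eng and Tek stand for the genes that were not called. RefSeq promoters (GRCm38.p6) were found for 5 of the 10 genes, and that of Tie1 is not shown because 212 of its 250 bases lie in an exon of the annotation of the files' build. Each line holds the 250 bases before the RefSeq start, 5′ to 3′ on the gene's strand. Capitals mark matches, on either strand, to GGAA, the core bound by ETS factors, and to a core of the CTCF motif, which reads CC, any 3 bases, AG, any 2 bases and GGC.
Npr3, chr15:11907372-11907621, minus strand: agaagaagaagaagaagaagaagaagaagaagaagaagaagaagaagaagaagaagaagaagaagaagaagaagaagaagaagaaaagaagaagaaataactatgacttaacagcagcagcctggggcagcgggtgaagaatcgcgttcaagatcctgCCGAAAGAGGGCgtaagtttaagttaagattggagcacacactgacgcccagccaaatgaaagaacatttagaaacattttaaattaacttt
Emcn, chr3:137340828-137341077, plus strand: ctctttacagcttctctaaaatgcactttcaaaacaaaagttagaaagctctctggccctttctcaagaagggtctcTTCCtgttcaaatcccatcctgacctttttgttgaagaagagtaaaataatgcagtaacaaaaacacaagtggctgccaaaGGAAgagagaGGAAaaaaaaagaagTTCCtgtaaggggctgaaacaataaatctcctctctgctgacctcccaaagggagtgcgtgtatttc
Eng, chr2:32646345-32646594, plus strand: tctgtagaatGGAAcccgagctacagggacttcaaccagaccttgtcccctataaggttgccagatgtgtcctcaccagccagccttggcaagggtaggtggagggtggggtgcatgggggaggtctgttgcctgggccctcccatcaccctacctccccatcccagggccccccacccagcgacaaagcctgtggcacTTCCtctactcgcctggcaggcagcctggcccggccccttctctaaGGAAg
Tek, chr4:94739039-94739288, plus strand: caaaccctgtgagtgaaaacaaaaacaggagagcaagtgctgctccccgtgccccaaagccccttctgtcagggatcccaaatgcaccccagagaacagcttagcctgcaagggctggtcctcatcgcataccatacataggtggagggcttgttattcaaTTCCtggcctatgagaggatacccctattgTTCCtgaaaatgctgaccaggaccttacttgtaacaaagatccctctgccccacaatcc

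The Npr3 window held 0 matches to GGAA and 1 to the CTCF core, whose first base lies at -92 from the start. The Emcn window held 4 matches to GGAA, that of Eng 3 and that of Tek 2, and none of these windows held a match to the CTCF core. Among 32851 RefSeq promoter windows of the same length, 93.4% held GGAA and 7.17% the CTCF core. The Npr3 window opens with 28 GAA units in a row on the gene's strand, where 8 of all windows held a run of at least 10 units. The last 11 bases of the Emcn window lie in an exon of that annotation. The RefSeq start of Npr3 lies 1697 bases upstream of its annotated start. A match to letters is a description of the sequence, and no binding was measured at these starts.

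In control hearts the 10 genes spanned a range of levels when the signal was divided by exonic length. The order of mean signal per kb was Plvap at 55.6 ± 2.37 (SD, n = 3), Cdh5 at 46.6 ± 2.70, Eng at 44.8 ± 3.15, Tek at 39.1 ± 3.94, Npr3 at 34.2 ± 1.22, Pecam1 at 32.0 ± 2.36, Tie1 at 27.2 ± 1.28, Emcn at 10.7 ± 0.91, Esam at 9.31 ± 1.27 and Nfatc1 at 9.07 ± 0.53. Neighbours in this order whose libraries overlapped were Cdh5 with Eng, Eng with Tek, Npr3 with Pecam1, Emcn with Esam, and Esam with Nfatc1. Exons of Eng share 124 of its 3870 exonic bases (3.20%) with Ak1 and 61 (1.58%) with Fpgs on the opposite strand, so some reads counted for Eng may belong to those genes.

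**Figure D1:**
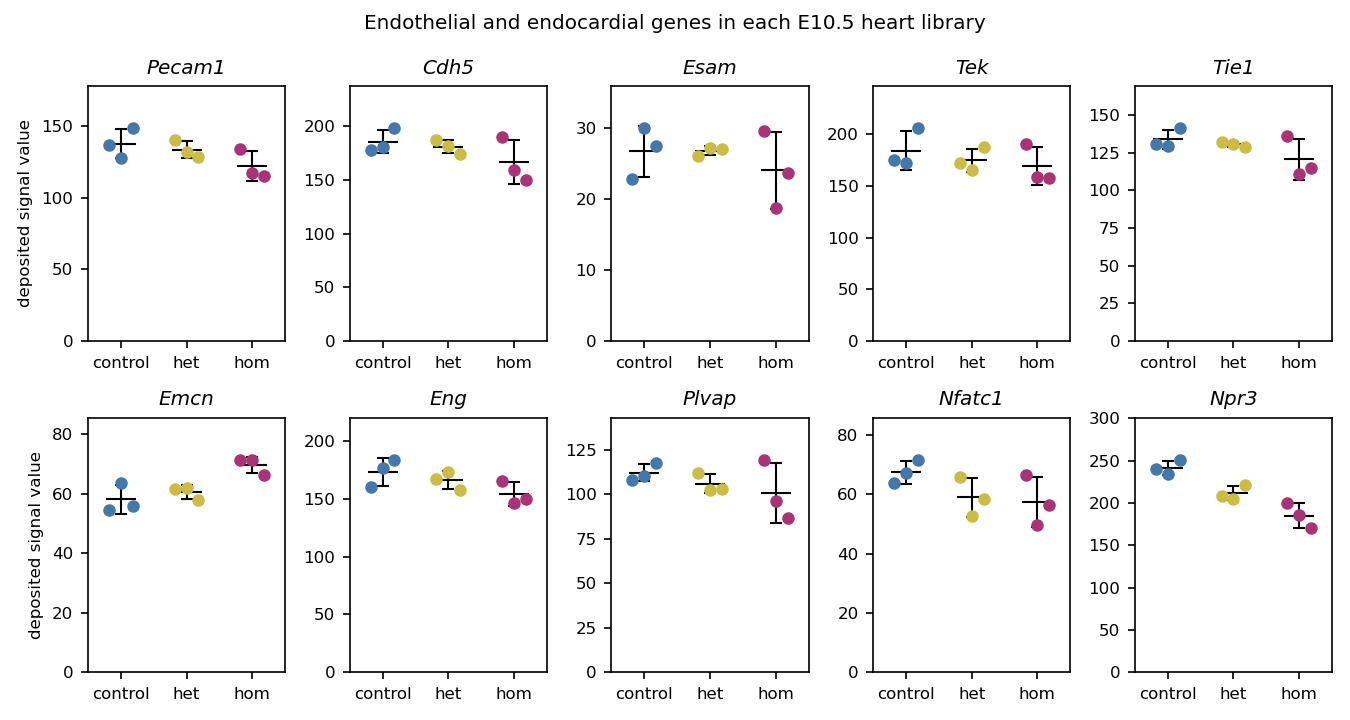
Deposited signal value (vertical axes, from 0) of each of the 10 genes in 3 control, 3 heterozygote (het) and 3 homozygote (hom) libraries. Points are libraries in the order 1 to 3, the wide bar is the group mean and the whiskers are 1 SD; Npr3 steps down between the groups without overlap, Emcn is higher in all homozygote libraries than in any control, and in most other panels homozygote 1 lies above homozygotes 2 and 3.

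To see how loss of both alleles affected these genes, homozygotes were compared with controls. Npr3 fell and Emcn rose, and the remaining 8 genes differed from controls by -8.23% (Tek) to -14.8% (Nfatc1) in mean signal without passing the test (limma, Benjamini-Hochberg adjusted p under 0.05 over all 14011 genes). A count of 2 called genes among 10 is to be read against 15.2% of all genes called in this comparison, 7.19% higher and 8.03% lower, and by itself does not set these genes apart. Fold changes were below 0 for 9 of the 10 genes, against 50.1% of all genes. Their median log2 fold change was -0.17, where the median of all genes was -0.001. At an unadjusted p under 0.05 there were 5 of the 10, against 29.6% of all genes.

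Npr3 encodes the natriuretic peptide clearance receptor, which removes natriuretic peptides from the circulation and marks the endocardium at this stage. The gene (ENSMUSG00000022206) lies at chr15:11769651-11835429 on the minus strand of NCBIM37. Its signal was 239.8, 233.8 and 250.8 in controls 1 to 3, 208.9, 205.3 and 221.8 in heterozygotes 1 to 3, and 199.5, 185.8 and 170.0 in homozygotes 1 to 3. All heterozygotes lay below all controls, and all homozygotes below all heterozygotes. The log2 fold change of homozygotes against controls was -0.39 (SE 0.06, limma adjusted p = 0.0018), a difference of -23.4% in the mean. All homozygotes lying below all controls was seen for 16.5% of all genes. Of 9837 genes with a mean signal of at least 10, those whose log2 values followed Npr3 most closely over the 9 libraries were Sema4d (Pearson r = 0.98), Nav1 (0.98) and Arhgap26 (0.98), where the points share depth and group.

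Emcn encodes endomucin, a sialomucin on the surface of endothelial and endocardial cells. The gene (ENSMUSG00000054690) lies at chr3:137004031-137095149 on the plus strand of NCBIM37. Its signal was 54.6, 63.7 and 55.9 in controls, 61.7, 62.0 and 58.0 in heterozygotes and 71.2, 71.3 and 66.4 in homozygotes. Homozygotes did not overlap either other group, while heterozygotes lay within the range of the controls. The log2 fold change of homozygotes against controls was 0.26 (SE 0.07, limma adjusted p = 0.027), a mean 19.9% higher, and all homozygotes lay above all controls, as for 16.6% of all genes. The call was near the threshold: it was lost without control 1 (adjusted p = 0.102), control 3 (0.104), homozygote 1 (0.0682) or homozygote 2 (0.0728), and with DESeq2 (0.0822). The genes that followed it most closely, on the measure used for Npr3, were Fam195a (r = 0.98), Ndufb8 (0.98) and Haus4 (0.97).

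Of the junction proteins, Cdh5 (chr8:106625525-106668402), the cadherin of endothelial adherens junctions, had a signal of 177.8, 181.0 and 197.9 in controls and 190.0, 159.5 and 150.2 in homozygotes. Homozygote 1 lay within the controls, and homozygotes 2 and 3 below them. The log2 fold change of Cdh5 was -0.16 (95% confidence interval -0.33 to 0.01, limma adjusted p = 0.193). Pecam1 (chr11:106515531-106611942), an adhesion molecule also made by platelets and some blood cells, differed by -0.17 on the log2 scale (adjusted p = 0.132). Esam (chr9:37335663-37345904), an immunoglobulin-family adhesion molecule of tight junctions, was the lowest of the 10 by signal, at 22.8, 29.9 and 27.4 in controls, 26.0, 27.2 and 27.1 in heterozygotes and 29.6, 18.7 and 23.7 in homozygotes. Its groups overlapped throughout, and its log2 fold change of -0.16 had the widest interval of the 10, from -0.47 to 0.14.

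In the receptor genes too, homozygote 1 was the highest of the homozygotes. Tek (chr4:94405980-94541667) encodes Tie2, the receptor of the angiopoietins, and its log2 fold change was -0.12 (limma adjusted p = 0.369), the smallest in size of the 10. Tie1 (chr4:118143796-118162666), its related co-receptor, differed by -0.15 (adjusted p = 0.179), and Eng (chr2:32502115-32538189), endoglin, a co-receptor of the TGFβ and BMP family, by -0.17 (adjusted p = 0.111). In all of these the groups overlapped. Plvap (chr8:74021653-74035668), which forms the diaphragms of endothelial fenestrae, had a signal of 108.3, 110.6 and 117.5 in controls, 112.1, 102.4 and 103.2 in heterozygotes and 119.3, 96.0 and 86.6 in homozygotes. Homozygote 1 thus had the highest Plvap of all 9 libraries and homozygotes 2 and 3 the lowest. The log2 fold change of Plvap was -0.17 (adjusted p = 0.265).

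Nfatc1 encodes the calcineurin-dependent transcription factor that marks the endocardium and is needed for the valves. Its signal was 63.7, 67.0 and 71.6 in controls, 65.9, 52.8 and 58.5 in heterozygotes and 66.4, 49.5 and 56.5 in homozygotes. Libraries 2 and 3 of both mutant groups lay below all controls, and library 1 of each within them. Its log2 fold change of -0.24 (95% confidence interval -0.46 to -0.01, limma adjusted p = 0.146) was the largest in size among the 8 genes that were not called.

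**Figure D2:**
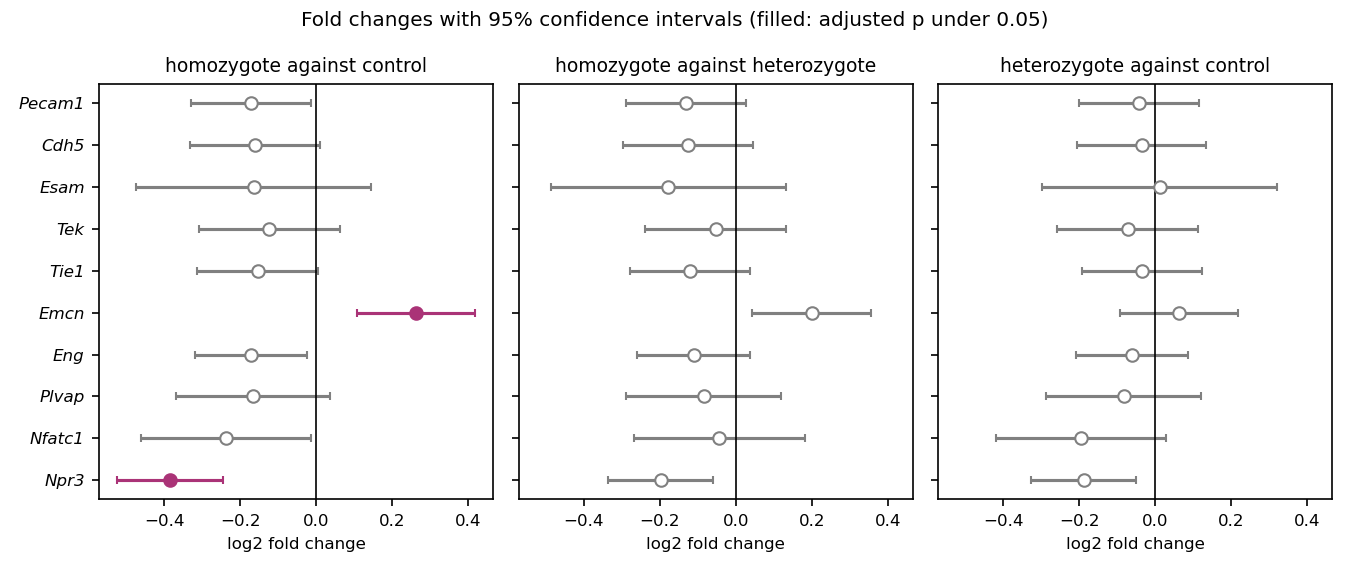
Log2 fold change (horizontal axes) of the 10 genes in the 3 comparisons, with 95% confidence intervals from limma as bars; filled points passed an adjusted p under 0.05 and open points did not. Only Npr3 (-0.39) and Emcn (0.26) in homozygotes against controls are filled, and the other 8 points of that panel lie between -0.24 and -0.12.

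Homozygotes did not form 1 level for most of these genes. Relative to the control means, the median log2 deviation of the 8 uncalled genes was 0.03 in homozygote 1 and -0.24 in both homozygote 2 and homozygote 3. Of the 10 genes, 1 (Npr3) lay below the lowest control in homozygote 1, 9 in homozygote 2 and 8 in homozygote 3. In heterozygotes the count was 1, 4 and 6. Without homozygote 1, the call of Emcn was lost, Npr3 kept its call, and Pecam1, Cdh5, Tie1, Plvap and Nfatc1 were also called lower, so that 6 of the 10 were called, all lower, against 7% of all genes called lower in that fit. Homozygote 1 was set apart by its values of these same genes, so this count is no independent support for a fall. Without homozygote 2 only Npr3 was called, and without homozygote 3 Emcn and Npr3. The 38 other endothelial genes tested had median deviations of -0.04, -0.23 and -0.21 in homozygotes 1 to 3, an order like that of the 10 genes.

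The lists of other cell types were summed in each library to set beside these differences, whose part in them was not tested. Their counts of called genes are to be read against 7.19% of all genes called higher and 8.03% called lower in homozygotes against controls. The erythroid list (13 genes, none at 0 in any group) summed to between 36980 and 53987 in controls, 29439 and 49444 in heterozygotes, and 64067, 71158 and 85082 in homozygotes 1 to 3, without overlap between homozygotes and either other group. Of its genes 11 were called higher in homozygotes than in controls. Epicardial genes summed to between 607.6 and 640.2 in controls, 611.8 and 647.1 in heterozygotes and 759.2 and 836.7 in homozygotes, with 6 of 11 called higher and the highest sum in homozygote 1. Cushion mesenchyme genes, of which 4 of 13 were called lower, summed to between 2571 and 2897 in controls, between 2495 and 2522 in heterozygotes and to 2328, 2252 and 1918 in homozygotes 1 to 3. Vcan, the largest in that sum, had a mean of 1025.8 in controls and 651.8 in homozygotes, so the sum leans on this gene. Of these 13 genes 12 had a log2 fold change below 0, and Col1a1 was above 0 (0.47) without being called. Cardiomyocyte genes summed to between 17558 and 20524 in controls, 20219 and 23271 in heterozygotes and 16653 and 19801 in homozygotes, so that homozygotes overlapped controls and lay below all heterozygotes, with 1 of 13 called higher and 3 lower against controls. Smooth muscle and pericyte genes, of which 3 of 8 were called lower, summed to between 2447 and 2696 in controls, 2692 and 2721 in heterozygotes and 2235 and 2307 in homozygotes. Acta2, the largest in that sum, had a mean of 1380 in controls and 1310 in homozygotes and was not called. Of these 8 genes 7 had a fold change below 0. Myh11 was above 0 without being called, at a mean of only 2.90 in controls and 4.60 in homozygotes. The platelet and haematopoietic and the macrophage lists were low, with sums of at most 104.5 and 54.1 in any library, and each had 1 gene called lower and none higher.

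Against heterozygotes, where 6.87% of all genes were called higher and 6.7% lower, the erythroid list had 12 genes called higher and the epicardial list 5, with none lower in either. The cushion mesenchyme and cardiomyocyte lists each had 5 genes called lower and the smooth muscle and pericyte list 3, with none higher. The platelet and haematopoietic and the macrophage lists each had 1 gene called in each direction.

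**Figure D3:**
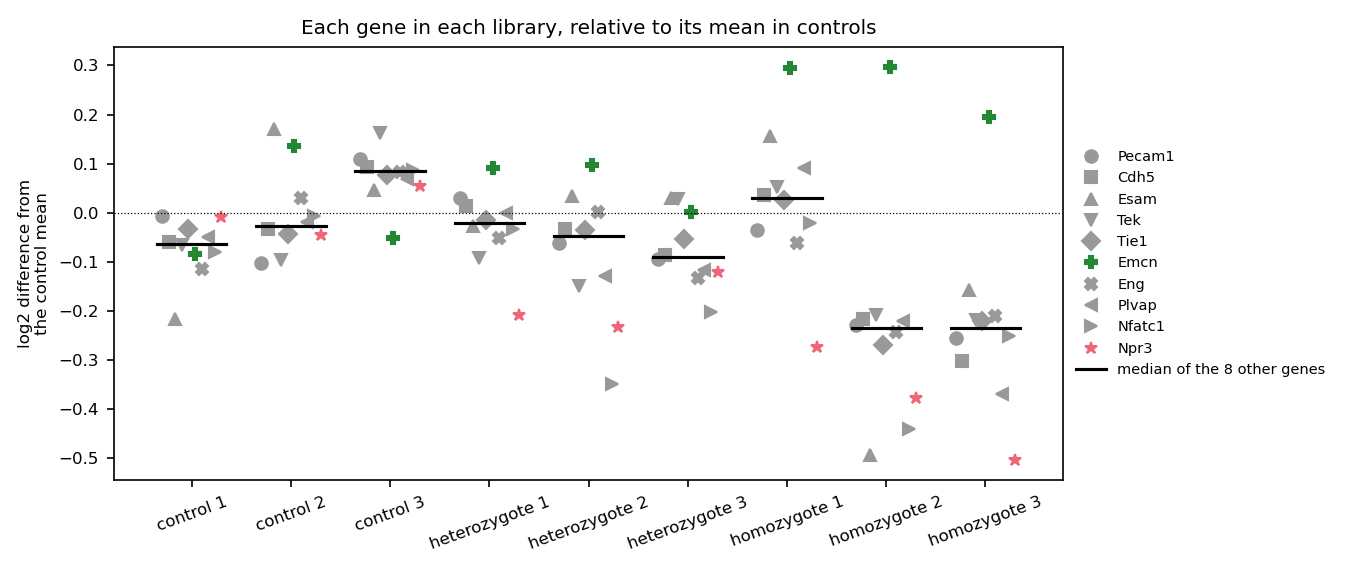
Log2 difference of each gene from its own mean in controls (vertical axis) in each of the 9 libraries (horizontal axis). Markers are genes, with Emcn in green and Npr3 in red, and the black bar is the median of the other 8, which lies at 0.03 in homozygote 1 and at -0.24 in homozygotes 2 and 3, while Emcn stays above 0 and Npr3 below 0 in all 3.

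Npr3 and Emcn were also set against the other members. Since the calls in these same libraries set Npr3 and Emcn apart from the 8 uncalled genes, these ratios describe the values and add no independent support to the calls. Over 3 libraries a group, controls had a mean log2 ratio of Emcn to the 8 uncalled genes of -0.92 ± 0.14 (SD), heterozygotes of -0.80 ± 0.05 and homozygotes of -0.49 ± 0.16, and all homozygotes lay above all other libraries. The ratio of Npr3 was 1.13 ± 0.06 in controls, 1.00 ± 0.07 in heterozygotes and 0.91 ± 0.11 in homozygotes, and all homozygotes lay below all controls. When every library was instead scaled to the mean log2 level of the 38 other endothelial genes, the median log2 fold change of all genes in homozygotes against controls moved to 0.17 and that of the 10 genes to 0.01. On that scale Emcn differed by 0.43 (limma adjusted p = 0.0147) and Npr3 by -0.21 (adjusted p = 0.132), so the call of Emcn held and that of Npr3 did not. In that fit 13% of all genes were called higher and 1.91% lower.

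The genes varied together between libraries of 1 group. After each group's mean was subtracted, 42 of the 45 pairs among the 10 genes had a correlation above 0 over the 9 libraries, with a median of 0.67. Cdh5 and Plvap formed the closest pair (r = 0.97). Emcn stood apart with a median correlation of 0.02 with the other 9 genes, against 0.54 to 0.80 for each of those. These are descriptions over 9 libraries, in which the genes share depth and cell composition. No such values were computed for pairs of other genes, so they do not set these genes apart.

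Homozygotes against heterozygotes, in which both groups carry Cre, gave 0 of the 10 genes past the threshold with limma, with edgeR and with DESeq2, against 13.6% of all genes with limma. At an unadjusted p under 0.05 were 2 of them, Npr3 and Emcn, where 27.6% of all genes were, and 9 of the 10 had a fold change below 0, against 50.8% of all genes. Npr3 differed by -0.20 (95% confidence interval -0.34 to -0.06, limma adjusted p = 0.0586) and Emcn by 0.20 (0.04 to 0.36, adjusted p = 0.0869), both without overlap between the groups, as for 15.5% of all genes in the direction of Npr3 and 15.3% in that of Emcn. The median log2 fold change of the 10 genes was -0.12, and the other 8 ranged from -0.18 for Esam to -0.04 for Nfatc1. Without homozygote 1, which was set apart by its values of these same genes, Npr3, Cdh5 and Tie1 were called lower, against 6.21% of all genes. Without homozygote 2 or homozygote 3 none was called.

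Heterozygotes against controls likewise gave 0 of the 10 genes with limma, edgeR and DESeq2, and 0.143% of all genes were called with limma. Npr3 alone reached an unadjusted p under 0.05, as 7.37% of all genes did, with a log2 fold change of -0.19 (95% confidence interval -0.33 to -0.05, limma adjusted p = 0.491) and all heterozygotes below all controls, as for 6.93% of all genes. Nfatc1 had a difference of similar size, -0.19 (-0.42 to 0.03, adjusted p = 0.723), with groups that overlapped. The other 8 genes lay between -0.08 for Plvap and 0.06 for Emcn. With 3 libraries in each group, an exact two-sided permutation test of 1 gene cannot go below 0.10, so the calls rest on the spread shared over all genes.

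Genes of the pathways around these members were then examined, and the counts of each list are given beside the shares of all genes called in the same comparison. Of the ligands and partners of Tek and Tie1, Angpt1, the activating ligand of Tie2 made largely by the myocardium, had a mean signal of 89.4 in homozygotes and 110.6 in controls, and differed by -0.30 (limma adjusted p = 0.0413), and Ptprb, the endothelial phosphatase that acts on Tie2, fell by 0.49 on the log2 scale (adjusted p = 0.00341). Angpt2, the context-dependent ligand, differed by -0.20 (adjusted p = 0.745), at a mean signal of only 2.59 in homozygotes. Of the 8 genes of this list 2 were called lower, where 8.03% of all genes were, and none higher, with a median of -0.10. Against heterozygotes 1 was called lower, where 6.7% of all genes were, and none higher. The call of Angpt1 was lost without control 1, control 3, homozygote 2 or homozygote 3, with adjusted p up to 0.181, while against heterozygotes Angpt1 fell by 0.42 (adjusted p = 0.00983) and kept its call without any 1 library. The latter call was lost with endothelial scaling (adjusted p = 0.0979) and with limma without the trend (0.0585).

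Npr3 clears the peptides made from Nppa and Nppb. Nppa, the atrial peptide, had a mean signal of 577.9 in homozygotes, 825.2 in heterozygotes and 749.7 in controls, and fell against heterozygotes by 0.54 (limma adjusted p = 0.0127). Against controls it differed by -0.39 (adjusted p = 0.0462), a call lost on leaving out any 1 of 7 libraries, control 1 and homozygote 1 being the exceptions, with adjusted p up to 0.175, and lost with edgeR (0.0537) and DESeq2 (0.116). The call against heterozygotes was lost without heterozygote 3 (adjusted p = 0.0504), with endothelial scaling (0.0506) and with limma without the trend (0.0728). Nppb differed from controls by 0.21 (adjusted p = 0.185). The signalling receptors Npr1 and Npr2 differed by -0.24 (adjusted p = 0.269) and -0.42 (adjusted p = 0.0596), and 1 of the 8 genes of this list was called against controls, lower as were 8.03% of all genes, with a median of -0.25. Against heterozygotes 3 of the 8 were called lower, where 6.7% of all genes were, and none higher. They were Nppa, Npr2, which differed by -0.47 (adjusted p = 0.0421), and Furin, a protease that cleaves propeptides, which differed by -0.26 (adjusted p = 0.0484). The calls of Npr2 and Furin were near the threshold: that of Npr2 was lost on leaving out any 1 library but homozygote 3 (adjusted p up to 0.129), and that of Furin without control 2, any 1 heterozygote, homozygote 2 or homozygote 3 (up to 0.190), and both with endothelial scaling (0.236 and 0.400). That of Npr2 was also lost with edgeR (0.0537) and DESeq2 (0.18).

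Among 19 genes of endoglin and BMP or TGFβ signalling, 3 were called lower in homozygotes than in controls and none higher, with a median of -0.20. Of all genes 8.03% were called lower. Against heterozygotes 3 were again called lower, where 6.7% of all genes were, and none higher. Bmpr2, the type II BMP receptor, fell by 0.94 (limma adjusted p = 0.000328), from a mean signal of 41.2 to 21.0 with heterozygotes at 29.3, and Tgfbr3, betaglycan, a co-receptor related to endoglin, fell by 0.67 (adjusted p = 0.000431), from 97.5 to 61.3 with heterozygotes at 97.2. Against heterozygotes Bmpr2 fell by 0.47 (adjusted p = 0.0223) and Tgfbr3 by 0.66 (adjusted p = 0.000572), and for Bmpr2 all heterozygotes already lay below all controls. Both calls against controls held without any 1 library. Tgfbr1 differed by -0.27 (adjusted p = 0.0404), a call lost without control 1, control 3, heterozygote 2, homozygote 1 or homozygote 3, with adjusted p up to 0.160. Acvrl1, the endothelial type I receptor ALK1 that pairs with endoglin, was low, at 3.87 in homozygotes and 3.67 in controls, and its ligand Bmp10 differed by -0.23 (adjusted p = 0.376).

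Of 20 genes of the cadherin complex and its junctional partners, 5 were called lower and 1 higher against controls, where 8.03% of all genes were called lower and 7.19% higher, with a median of -0.06. Ctnnd1, the catenin p120 that holds cadherins at the membrane, fell by 0.27 (limma adjusted p = 0.00998), and Heg1, a transmembrane receptor needed for heart growth, by 0.33 (adjusted p = 0.00714). Both calls held without any 1 library. Vcl differed by -0.40 (limma adjusted p = 0.015), the largest fall of the list, and Cdh2 by -0.34 (0.0284). These 2 calls were lost without some 1 library (up to 0.0756 and 0.116), with endothelial scaling and with limma without the trend, and that of Cdh2 also with the gene length trend removed. Vcl and Cdh2 were also called lower against heterozygotes (0.0115 and 0.0131). F11r was the gene called higher (0.0396), a call lost in 13 of 23 alternative settings. Against heterozygotes 4 of the 20 were called lower and 3 higher, where 6.7% and 6.87% of all genes were. The genes called higher were Rap1a by 0.30 (adjusted p = 0.00788) and Rap1b by 0.26 (adjusted p = 0.0182), small GTPases that act at junctions, and Pdcd10 by 0.33 (adjusted p = 0.0125), a protein of the cerebral cavernous malformation complex. The call of Rap1a was kept in all 23 alternative settings, while that of Pdcd10 was lost without heterozygote 2 (adjusted p = 0.0537) and that of Rap1b without heterozygote 2 or homozygote 3 (up to 0.078) and with limma without the trend (0.0751). Against controls none of these 3 was called (adjusted p = 0.0552 for Rap1a, 0.276 for Rap1b and 0.0523 for Pdcd10). Of 10 genes of calcineurin and NFAT signalling only Nfat5, a family member that does not depend on calcineurin, was called, and fell by 0.58 (adjusted p = 0.000192), with a list median of -0.05, and 1 of 10 is below the 15.2% of all genes. Against heterozygotes 1 was called higher and 1 lower, where 6.87% and 6.7% of all genes were.

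Of the 38 other endothelial genes tested, 6 were called lower and 1 higher, with a median of -0.20. The count of 7 called genes is near the 15.2% of all genes, of which 8.03% were called lower and 7.19% higher. Against heterozygotes 5 were called lower, where 6.7% of all genes were, and none higher. Gja5, connexin 40 of arterial endothelium and also of atrial and trabecular myocardium, fell by 1.59 (limma adjusted p = 5.41e-05), from a mean signal of 135.4 to 45.2. Cd93, a lectin-like endothelial surface protein, fell by 0.36 (adjusted p = 0.00181), and Ptprb is given above. Kdr, the main VEGF receptor, fell by 0.43 (adjusted p = 0.0136), a call lost without control 3, homozygote 2 or homozygote 3, with adjusted p up to 0.0695. Podxl, a sialomucin like Emcn and also a protein of the epicardium, was called higher by 0.26 (adjusted p = 0.031), a call lost without control 2, control 3, homozygote 1 or homozygote 2, with adjusted p up to 0.12.

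Among 20 transcription factors of endothelium, 3 were called higher, where 7.19% of all genes were, and 2 lower, where 8.03% were, with a median of 0.06. Against heterozygotes 4 were called higher, where 6.87% of all genes were, and 2 lower, where 6.7% were. Sox17 rose by 1.15 (limma adjusted p = 0.00438), from a mean signal of 2.29 to 5.58. Lyl1, which blood cells also express, rose by 0.52 (adjusted p = 0.00863). The erythroid list rose too, while the platelet and haematopoietic list had 1 gene called lower and none higher against controls. The part of blood cells in the change of Lyl1 was not tested. Tal1 and Lmo2, also factors of blood cells, rose against heterozygotes by 0.69 (adjusted p = 0.00387) and 0.43 (adjusted p = 0.00788) and kept those calls in all 23 alternative settings. Against controls Tal1 rose by 0.45 (adjusted p = 0.0319), a call lost without control 2, control 3 or homozygote 3 (adjusted p up to 0.145), and Lmo2 differed by 0.22 (adjusted p = 0.123). Mef2c, a factor of myocardium as well as endothelium, fell by 0.42 (adjusted p = 0.00148). The calls of Sox17, Lyl1 and Mef2c against controls held without any 1 library.

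Of 13 genes of signalling from endocardium to myocardium, 6 were called lower and 1 higher against controls, where 8.03% and 7.19% of all genes were, with a median of -0.21. Against heterozygotes 2 were called lower and 1 higher, where 6.7% and 6.87% of all genes were. Edn1, the endothelin ligand made by endothelium, rose by 0.81 (limma adjusted p = 0.00392), and Erbb2, the neuregulin co-receptor of the myocardium, fell by 0.56 (adjusted p = 0.00355). Ednrb, an endothelin receptor, fell by 0.35 (adjusted p = 0.00649). The calls of these 3 genes against controls held without any 1 library. Ednra, the other endothelin receptor, had a signal of 47.9, 45.0 and 53.7 in controls, 50.6, 61.8 and 64.0 in heterozygotes and 36.0, 36.6 and 24.8 in homozygotes. All homozygotes lay below all other libraries. Ednra fell by 0.86 against heterozygotes (limma adjusted p = 0.00145), a call kept in all 23 alternative settings. Against controls it fell by 0.60 (adjusted p = 0.0105), a call lost without control 3 (0.0536), with endothelial scaling (0.0509) and with limma without the trend (0.0584).

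Several of these calls depended on the scaling or on the comparison. When libraries were scaled to the other endothelial genes, a list that itself holds Gja5, Cd93, Kdr, Ptprb and Podxl, the calls against controls of Angpt1, Nppa, Tgfbr1, Ctnnd1, Heg1, Cd93, Kdr, Mef2c, Ednrb and Ednra were lost (adjusted p from 0.0509 for Ednra to 0.568 for Ctnnd1), while those of Ptprb, Bmpr2, Tgfbr3, Nfat5, Gja5, Podxl, Sox17, Lyl1, Tal1, Edn1 and Erbb2 were kept. With the gene length trend removed, the calls of Ptprb (adjusted p = 0.0669), Ctnnd1 (0.0621), Heg1 (0.185), Angpt1 (0.061) and Tgfbr1 (0.135) were lost. With limma without the trend, those of Angpt1 (adjusted p = 0.125), Nppa (0.144), Tgfbr1 (0.122), Ctnnd1 (0.0531), Kdr (0.0721), Podxl (0.107), Tal1 (0.118) and Ednra (0.0584) were lost. Against heterozygotes, where both groups carry Cre, Ptprb differed by -0.19 (limma adjusted p = 0.189), Ednrb by -0.18 (0.124), Heg1 by -0.17 (0.130), Nfat5 by -0.16 (0.158), Tgfbr1 by -0.18 (0.171) and Podxl by 0.19 (0.111), and none of these was called. For Ptprb, Ednrb, Heg1 and Nfat5 all heterozygotes already lay below all controls. Nfat5 was also called lower in heterozygotes than in controls, by 0.42 (adjusted p = 0.0345), a call lost without any 1 control, any 1 heterozygote or homozygote 1, with adjusted p up to 0.212, and lost with endothelial scaling (0.540), with limma without the trend (0.264) and with the gene length trend removed (0.0863).

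Against heterozygotes, Gja5, Tgfbr3, Edn1, Ednra, Erbb2, Lyl1, Tal1, Mef2c and Cd93 were called in the same direction as against controls and kept the call without any 1 library, though Mef2c and Cd93 lost it with endothelial scaling (adjusted p = 0.0961 and 0.328). Sox17, Bmpr2, Kdr and Ctnnd1 were also called, with less stable calls. Endothelial scaling ended those of Bmpr2 (adjusted p = 0.116), Kdr (0.140) and Ctnnd1 (0.501), limma without the trend also ended them (0.074, 0.117 and 0.066), and that of Kdr was also lost with the gene length trend removed (0.0674). That of Sox17 was lost without heterozygote 1, heterozygote 3 or any 1 homozygote (adjusted p up to 0.0652) and with DESeq2 (0.0549), that of Bmpr2 without heterozygote 1, heterozygote 3, homozygote 1 or homozygote 2 (up to 0.069) and with voom, that of Kdr without any 1 heterozygote, homozygote 2 or homozygote 3 (up to 0.126), and that of Ctnnd1 without heterozygote 3 (0.0541).

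**Figure D4:**
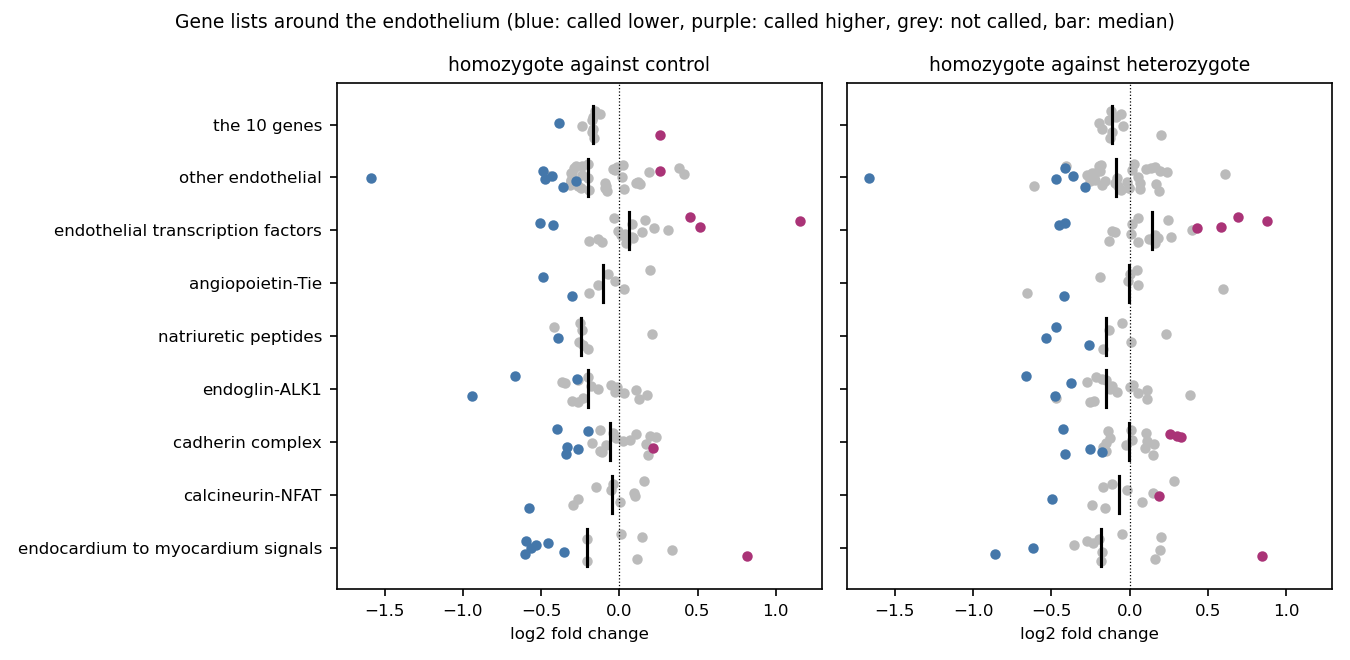
Log2 fold change (horizontal axes) of single genes (points) of the 10 genes and of 8 lists around them, in homozygotes against controls (left) and against heterozygotes (right). Blue points were called lower, purple points higher and grey points not, and black bars are list medians; in the left panel the median of the 10 genes is -0.17 and that of the other endothelial genes -0.20, with Gja5 farthest to the left at -1.59.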

How the data were processed

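Poly(A) RNA from pooled E10.5 hearts was sequenced in 9 libraries. Per the labels' processing notes, the authors used CASAVA 1.8, cutadapt 1.6.1, RSEM 1.20 with Bowtie2 0.12.7, and limma, on NCBIM37; the study's text gives Ensembl gene build 65. The authors deposited 1 table of normalised signal values. With a tolerance of 0.01 reads, 100% of these values were whole reads plus 0.5 times 1 step per library, so edgeR and DESeq2 could be run on the recovered reads as alternatives. Columns headed KO match the homozygote labels. Columns headed DH were taken as the heterozygotes and those headed Het as the controls, from the labels' growth protocol and the study's text, and library numbers of those groups are the columns' own.

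The test was limma (3.58.1, R 4.3.3) with a trend, on log2(value + 0.5), with all 9 libraries and 3 groups in 1 model, and Benjamini-Hochberg adjustment over 14011 genes at 0.05. Fold changes on this scale understate the change of low genes. edgeR 4.0.16 and DESeq2 1.42.0 were among the alternatives. Totals per library ran from 4294537 to 11629365 reads, which gives Esam, the lowest member, a counting error of 5.83% to 9.53%. Replicates differed by more than sampling noise in all 9 pairs (chi-square per degree of freedom 3.22 to 7.15).

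The 10 genes and all lists were chosen with earlier results of these data known. Named were all members, Ctcf, the ligands, receptors and inhibitors of the small lists, up to 6 called genes per list and comparison by adjusted p with the largest change, and the 3 closest patterns per called member; of these lists only a part is printed. Marker lists of other cell types were counted and summed. Motif letters were searched in RefSeq promoters, and gene positions come from the GENCODE annotation of NCBIM37. No batch is given in the sources used here.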

Additional observations from a re-analysis of the deposited data

How the results depend on the processing

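Across 23 alternative settings, the log2 fold changes of the 10 genes in 3 comparisons gave 690 values, of which 647 kept both direction and side of the threshold. Npr3 in homozygotes against controls ranged from -0.44 to -0.21 and lost its call in 1 setting, the scaling to other endothelial genes. Emcn ranged from 0.22 to 0.43 with adjusted p from 0.0133 to 0.104 and lost its call in 7. The number of the 10 genes called in homozygotes against controls was 2, and was 1 with endothelial scaling (Emcn), and 1 without the limma trend, with DESeq2 or at an adjusted p under 0.01 (Npr3 in each). It ran from 1 to 6 when 1 library was left out. It was 1 without control 1, control 3 or homozygote 2 (Npr3) and 6 without homozygote 1. Homozygotes against heterozygotes gave 0, but 1 with quantile normalization (Npr3), 1 with the gene length trend removed (Emcn), and 0 to 3 with 1 library left out, the 3 being without homozygote 1. Heterozygotes against controls gave 0 in every setting. The causes were not tested.

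Directions turned for genes that were not called. With endothelial scaling, homozygotes against controls gave Cdh5 0.010, Esam 0.0063, Tek 0.047, Tie1 0.017 and Plvap 0.0044, homozygotes against heterozygotes gave Cdh5 0.0029, Tek 0.076, Tie1 0.0079, Eng 0.018, Plvap 0.044 and Nfatc1 0.086, and heterozygotes against controls gave Pecam1 0.00032, Cdh5 0.0072 and Tie1 0.0086. The same scaling moved the median of all genes to 0.17, 0.12 and 0.04 in these comparisons. Nfatc1 against heterozygotes was also 0.036 with the gene length trend removed, and Esam in heterozygotes against controls was -0.0013 with edgeR and -0.0012 with DESeq2. With 1 library left out, homozygotes against heterozygotes ran from -0.15 to 0.059 for Nfatc1 and from -0.21 to 0.017 for Plvap. Heterozygotes against controls then ran from -0.094 to 0.012 for Pecam1, -0.065 to 0.012 for Cdh5, -0.096 to 0.098 for Esam, -0.12 to 0.0097 for Tek and -0.056 to 0.0043 for Tie1.

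Library numbers were not used as pairs. The deviations of same-numbered libraries correlated between -0.04 and 0.09, under the threshold of 0.1, and those of differently numbered libraries between -0.095 and 0.116. As these ranges overlap, the values show no pairing but cannot exclude one. With the replicate block as a term, 2 members were still called in homozygotes against controls and 0 in the other comparisons. The block ended 6 calls of named list genes against controls, including those printed of Angpt1 (adjusted p = 0.0609), Tgfbr1 (0.0586), Nppa (0.0708), Podxl (0.0595) and F11r. Against heterozygotes it ended 5, including those printed of Npr2 (0.0696) and Furin (0.0747). It also ended that of Nfat5 in heterozygotes against controls (0.0953). Of 29 such calls against controls, each gene counted once, 8 were kept in every setting and 15 were lost without some 1 library; against heterozygotes these counts were 9 and 17 of 29. Depth limits Esam most, with 110 reads in homozygote 2.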
